A study of Bos taurus and Capra hircus with 9 samples.

Results

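The miRNA entries numbered 2000 and above are 56 of the 296 bovine (bta) miRNA entries listed for milk-derived extracellular vesicles (EVs) of goats and cows. They were chosen by name, as every entry whose number in miRBase, the public miRNA registry, is 2000 or more, with miR-3431 left out. The left-out miR-3431 was higher in goats, as given below. Of the 56 members, 27 were above 0 in cows only, 25 in both species and 4 in goats only. Over all 296 entries the shares were 11.5% in cows only, 72.0% in both and 16.6% in goats only, against 48.2%, 44.6% and 7.14% of the members.

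Small RNAs were sequenced from EVs of 9 animals, with 1 library per animal. The 5 cows (Bos taurus, Holstein Friesian) were 30 ± 7 days in milk and the 4 goats (Capra hircus, Alpine, primiparous) were 26 ± 9 days in milk. EVs were prepared from the acid whey of cell-depleted skimmed milk, kept with the same preservatives in both species, by sucrose gradient ultracentrifugation, and goat milk alone had a second acetic acid step. Species therefore cannot be told apart from farm, breed or this step. Parity is not given for the cows, so it cannot be set apart from species either. The paper states that a further goat sample failed RNA quality control. The values are TPM, tags normalised to the library total, written by the authors as whole numbers, so a level of 1 is at the resolution of the table and the reads behind a value are unknown. In both species the tags were counted on bovine entries, so a lower level in goats and a goat sequence that differs from the bovine one cannot be told apart here.

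A miRNA is a short RNA cut from one arm (5p or 3p) of a hairpin, and it recognises target transcripts mainly through its seed, which is taken here as bases 2 to 8. miRBase numbers follow the order in which miRNAs were reported, so a high number marks a late report and not a shared function. Most of the names were given for cattle sequences, whereas miR-2355, miR-3613, miR-4286, miR-6516 and miR-6529 are numbers that human miRNAs also carry. The miR-2284 and miR-2285 names cover a large family known from cattle, with many similar copies in the genome. In the RefSeq annotation of the ARS-UCD2.0 bovine assembly 191 of 1032 miRNA genes (18.5%) carry these names.

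Among the members, 22 are miR-2284 or miR-2285 entries. Their deposited sequences are shown because many of them differ by a few bases or by a shifted start, either of which can change the seed, in capitals. The 9 miR-2284 entries read, 5′ to 3′ in DNA letters:
miR-2284x: tGAAAAGTtcgttcgggtttt
miR-2284y: aAAAGTTCgttcgggtttttc
miR-2284ab: tAAAAGTTtggttgggttttt
miR-2284j: gAAAAGTTcgttcaggtttt
miR-2284m: gAAAAGTTtgttcgggtttt
miR-2284k: gAAAAGTTcggtcgggttttt
miR-2284h-5p: cCCAAAAGttcgttcgggttt
miR-2284aa: aAAAAAGTttgtttgggtttt
miR-2284z: aAAAAAGTttgtttgggttttt

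The 13 miR-2285 entries read as follows, with the seed again in capitals:
miR-2285t: aGAATCTGgatgaactttttgg
miR-2285f: aAAACCTGaatgaactttttgg
miR-2285aa: aAAACTGGaacgaacttttgggc
miR-2285k: aAAACCGGaatgaactttttg
miR-2285p: aAAAACTTgagtgaacttttgg
miR-2285o: aAACCCGAacgaacttttgg
miR-2285q: aAGGACCTgaatgaactttctgg
miR-2285ad: aAAACCCAaatgaactttttgg
miR-2285b: aAAATCTGagtgaactttttgg
miR-2285l: aAAACCCGcatgaactttttggc
miR-2285g: aAACCTGAacaagctttttgg
miR-2285h: gAAAACCGaaacgaactttatg
miR-2285r: aGAAACCTggatgaactttttgg

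The word AAAAGTTC is in 5 miR-2284 entries (miR-2284x, miR-2284y, miR-2284j, miR-2284k and miR-2284h-5p), which is 1.69% of all 296 entries. Its reverse complement, GAACTTTT, is in 10 of the 13 miR-2285 entries, which is 3.38% of all 296, and each word was searched as written in every entry. No entry outside the family holds either word. The shorter word GAACTTT is in 14 entries (4.73% of all 296), which are 12 miR-2285 entries and, outside the family, miR-148a and miR-148b. miR-2285o shares a run of 18 bases with the reverse complement of miR-2284x, and in RefSeq a gene of miR-2285o overlaps one of miR-2284y and another overlaps that of miR-2284h. The seed AAAAGTT is shared by miR-2284ab, miR-2284j, miR-2284k and miR-2284m, and AAAAAGT by miR-2284aa and miR-2284z. All 13 miR-2285 seeds differ from one another. The miR-2284 entries lie within 5 edits of miR-2284x and the miR-2285 entries within 9 edits of miR-2285t, whereas the miR-2285 entries lie 12 to 16 edits from miR-2284x. Of the 56 members, 17 lie within 3 edits of another listed entry, and that entry was always a member. The sources used here do not say how tags shared by such entries were divided, so the values of single family entries are uncertain.

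The other 13 members whose mean reached 10 TPM in goats or cows lie outside the family. They are shown with the seed in capitals since these entries carry most of the remaining signal:
miR-2478: gTATCCCActtctgacacca
miR-2419-5p: aTCGCATCaacactcgtctgtt
miR-2419-3p: cAGGCGGGtgctaatacgatca
miR-3432a: tGCGGGATctttagttgtggtg
miR-7859: aAAAACTGgcagcttcatgtaa
miR-6119-5p: aGAGGTAAaaaattgatttgact
miR-6524: tTACTCTGagtaacctaactg
miR-6522: tCGGAATTgtttgtgtacctgt
miR-6529a: gAGAGATCagaggcgcagagt
miR-6120-3p: tATGTTGGacaacgtggatagc
miR-3613a: tGTTGTACttttttttttgttc
miR-6517: tCAGGGTCcgtgagctcctcggc
miR-2336: cTAACCGTaactttgaagtgct

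miR-2478 ends in cca, the bases at the 3′ end of mature tRNAs, and whether its tags came from tRNA was not tested. miR-3613a and miR-6119-5p are poor in G and C, with 22.7% and 26.1% of bases, whereas miR-6517 has 69.6%. Outside the family the only seed shared by a member with another entry was CTGAACT, common to miR-2411-3p and miR-345-3p. The median GC content was 43.2% in the members, 36.4% in the miR-2284 and miR-2285 entries and 46.7% in the other 240 entries.

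The members made up a small part of the listed miRNAs, and a larger one in cows. In the order goats 17, 44, 79 and 127, which is kept for goat values throughout, they summed to 668, 537, 687 and 375 TPM. In the order cows 1, 2, 3, 20 and 62, likewise kept throughout, they summed to 2611, 2254, 1795, 1264 and 1369 TPM. Every cow was above every goat, with a mean ± SD of 1859 ± 574 TPM (n = 5 cows) against 566.8 ± 144 TPM (n = 4 goats). As a share of the listed TPM this was 0.547 ± 0.0862% in cows and 0.179 ± 0.0242% in goats. Goats had 20 to 25 members above 0 and cows 35 to 45, although over all 296 entries goats had more above 0 (228 to 247) than cows (203 to 223). At 10 TPM or more there were 6 to 8 members in a goat and 13 to 20 in a cow. Without miR-2285t, the most abundant cow-only member, the sums were 375 to 687 TPM in goats and 923 to 1487 in cows.

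**Figure D1:**
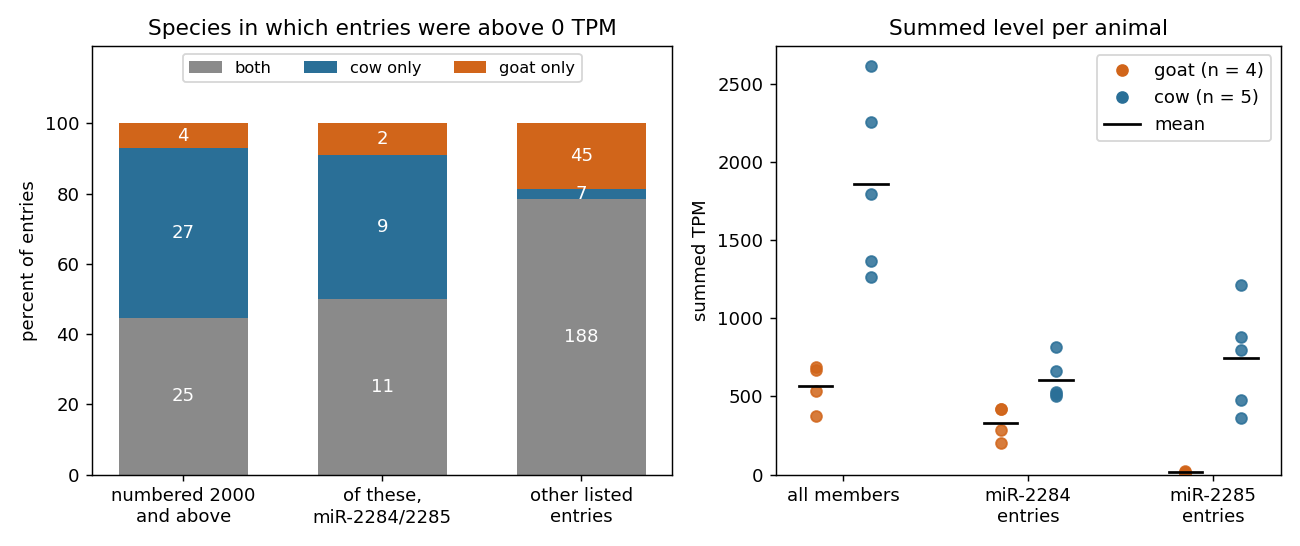
Left, percent of entries above 0 TPM in both species, in cows only or in goats only, for the 56 members, the 22 miR-2284 and miR-2285 entries among them and the 240 other entries, with counts in the bars. Right, summed TPM of all members, the miR-2284 entries and the miR-2285 entries, with 1 point per animal and a line at the mean. The cow-only part is 27 of 56 members and 7 of 240 other entries, and the miR-2285 sums of goats lie between 9 and 20 TPM.

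The summed levels of the listed epithelial markers overlapped between the species, while the sums of leukocyte and stromal markers lay higher in goats. Of 8 epithelial markers 7 were listed, without miR-203, and they summed to 27864 to 49878 TPM in goats and 32291 to 46038 in cows. In the comparison described below, miR-205 was called higher in goats (log2 difference 3.96) and miR-141 lower (-1.26), and the other listed epithelial markers did not pass. The 7 leukocyte markers, all listed, summed to 444 to 1230 TPM in goats and 17 to 52 in cows. Among 4 stromal and endothelial markers 3 were listed, without miR-126-5p, at 217 to 425 TPM in goats and at 19 to 30 in cows, with miR-145 at 0 in every cow. In each animal only 1 of the 3 reached 10 TPM, so this sum rests on a single marker. miR-143 was called higher in goats (log2 difference 3.85), while miR-126-3p was not called (-0.92, adjusted p = 0.144 by limma). Of 3 erythroid markers 2 were listed, without miR-144, at 1 to 37 TPM in goats and at 0 to 10 in cows. The part of these cell types in the member levels was not tested, and in bulk vesicles fewer contributing cells and less RNA per cell cannot be told apart.

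The species were compared entry by entry with limma on log2(TPM + 1), and a difference is given as the log2 fold change, goat minus cow, ± its standard error. The test took the 217 entries that exceeded 1 TPM in 4 or more libraries, p-values were adjusted over all 217 after Benjamini and Hochberg, and 0.05 was the threshold. Of the 217, 61.3% were called, 37.3% as higher and 24.0% as lower in goats. Of the 56 members 28 were tested, of which 4 were called higher in goats, 19 were called lower and 5 did not pass. The left-out miR-3431, which is not in these counts, was called higher in goats (log2 difference 8.06 ± 0.36, adjusted p = 9.19e-11 by limma). The filter fixed the direction of 11 of the 19, since no goat exceeded 1 TPM and they passed through cows alone. Of these 11, 9 were at 0 in every goat, and miR-2285aa and miR-2387 reached 1 TPM in some. miR-2284j and miR-2285k met the filter in cows alone and would not have met it in goats alone. For miR-2904 and miR-6119-3p, called higher in goats, the reverse held. The calls of these entries thus also leaned on the species where they were higher. Among entries above 0 in every library, where the filter fixes no direction in this way, 154 were tested, of which 27.3% were higher and 22.7% lower in goats. Of these 154, 50.0% were called. There 2 of 13 members were higher, 6 were lower and 5 did not pass, with a median log2 difference of -0.68 against 0.08 over the 154. Without any test or filter, every goat was below every cow for 20 of the 56 members and above for 1 (miR-3613a), where over all 296 entries the shares were 16.2% below and 25.3% above.

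miR-2284x was the most abundant member listed in both species, at rank 52 in goats and 41 in cows. Its levels were 401, 270, 397 and 194 TPM in goats and 586, 710, 432, 475 and 450 in cows. Every goat was below every cow, though goats 17 and 79 came close to the lowest cow. The mean ± SD was 315.5 ± 101 TPM (n = 4 goats) against 530.6 ± 117 TPM (n = 5 cows), with a log2 difference of -0.78 ± 0.28 (adjusted p = 0.0222 by limma). The adjusted p by limma rose above the threshold without goat 44 (0.0572), goat 127 (0.0583) or cow 2 (0.0607). In goats this entry alone held 91.1% to 92.2% of the summed TPM of the family. RefSeq places its single gene within TIAM1, which encodes an activator of the small GTPase Rac.

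miR-2284y holds the same run of 19 bases, aaaagttcgttcgggtttt, but starts 2 bases later than miR-2284x. The shift replaces the seed GAAAAGT by AAAGTTC. Goats had 10, 6, 11 and 5 TPM and cows 51, 71, 43, 40 and 44 TPM. Goats and cows were thus far apart, with a log2 difference of -2.53 ± 0.30 (adjusted p = 3.06e-06 by limma). The ratio of miR-2284x to miR-2284y within an animal was 40.1, 45.0, 36.1 and 38.8 in goats and 11.5, 10, 10.05, 11.9 and 10.2 in cows. The ratio was chosen after the values were seen and was not tested, but its ranges did not overlap. RefSeq has 7 genes named for miR-2284y, so its tags may come from several loci.

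miR-2284ab was at 5, 6, 8 and 3 TPM in goats and at 19, 19, 15, 8 and 11 in cows, where the ranges met at 8 TPM (log2 difference -1.24 ± 0.34, adjusted p = 0.00490 by limma). miR-2284j differs from miR-2284x by a start 1 base later and by G15A, counted from the 5′ end of miR-2284x. It was at 2, 0, 1 and 1 TPM in goats and at 3, 8, 6, 4 and 8 in cows, with every goat below every cow (log2 difference -1.80 ± 0.36, adjusted p = 4.69e-04 by limma). The filter was met in cows alone. miR-2284m differs from miR-2284j by C9T and A14G, counted from the 5′ end of miR-2284j, and did not reach the filter. It was at 0, 1, 0 and 0 TPM in goats and at 1, 4, 3, 1 and 2 in cows. The remaining miR-2284 entries were at the resolution of the table. miR-2284k was at 0, 0, 1 and 1 TPM in goats and at 1, 2, 0, 0 and 1 in cows. miR-2284h-5p, miR-2284aa and miR-2284z were at 0 in every goat and reached 1 TPM in cows 2, 3 and 62, in cows 2 and 62 and in cow 2, respectively.

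miR-2285t set the miR-2285 entries apart between the species. It was at 0 in all 4 goats and at 1152, 767, 848, 334 and 446 TPM in cows, where it was the first of all members in cows 1, 2 and 3 and second to miR-2284x in cows 20 and 62. Its rank in cows was 35 among all entries. The spread among cows was wide, with a mean of 709.4 ± 327 TPM (SD, n = 5). Its test passed (adjusted p = 1.45e-11, limma), with its direction fixed by the filter. With goats at 0 the fitted fold change also depends on the pseudocount and is not given as a size. RefSeq places its single gene within FCGR2B, which encodes an inhibitory receptor for IgG on immune cells, and the table gives no strand.

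The entry closest to miR-2285t in sequence, miR-2285r at 2 edits, was at 0 in every goat and at 1 TPM in cow 3 only. miR-2285f, 3 edits away from miR-2285t, was at 11, 5, 5 and 5 TPM in goats and at 17, 10, 10, 8 and 9 in cows. Goat 17 lay within the range of the cows and the others below it, and the entry did not pass (log2 difference -0.68, 95% interval -1.36 to 0.00066, adjusted p = 0.0778 by limma). When libraries were scaled to their listed tags, it was called lower in goats (adjusted p = 0.0446 by limma), as it was with that scaling leaving out miR-148a (0.0190), with median-of-ratios scaling (0.0229) and without goat 17 (0.0198). miR-2285k, which differs from miR-2285f by T7G and by the lack of the last base, was at 2, 0, 2 and 0 TPM in goats and at 14, 8, 6, 8 and 6 in cows. Here every goat was below every cow (log2 difference -2.38 ± 0.40, adjusted p = 9.79e-05 by limma), though the entry met the filter in cows alone. The changed base, counted from the 5′ end, lies in the seed. miR-2285aa showed the same order, at 0, 1, 1 and 0 TPM in goats and at 13, 7, 8, 7 and 10 in cows (log2 difference -2.79 ± 0.32, adjusted p = 1.78e-06 by limma, with its direction fixed by the filter).

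Other miR-2285 entries were at a few TPM. miR-2285p was at 0 in goats and at 7, 3, 1, 3 and 2 TPM in cows (adjusted p = 1.57e-04, limma, with its direction fixed by the filter). miR-2285q was at 0 in goats and at 4, 2, 1, 1 and 2 TPM in cows and was not tested. In contrast miR-2285o had higher values in goats, at 5, 1, 3 and 4 TPM, than in cows, at 1, 0, 0, 1 and 0 TPM. The ranges of miR-2285o touched at 1 TPM, and it was below the filter. miR-2285ad, at 1, 1, 2 and 0 TPM, and miR-2285l, at 0, 2, 1 and 0 TPM, were found in goats alone. miR-2285b was at 1, 0, 1 and 0 TPM in goats and reached 1 TPM in cow 62 only. miR-2285g and miR-2285h were at 0 in goats and at 1 TPM in cows 1, 3 and 62 and in cows 1, 2 and 3, respectively.

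**Figure D2:**
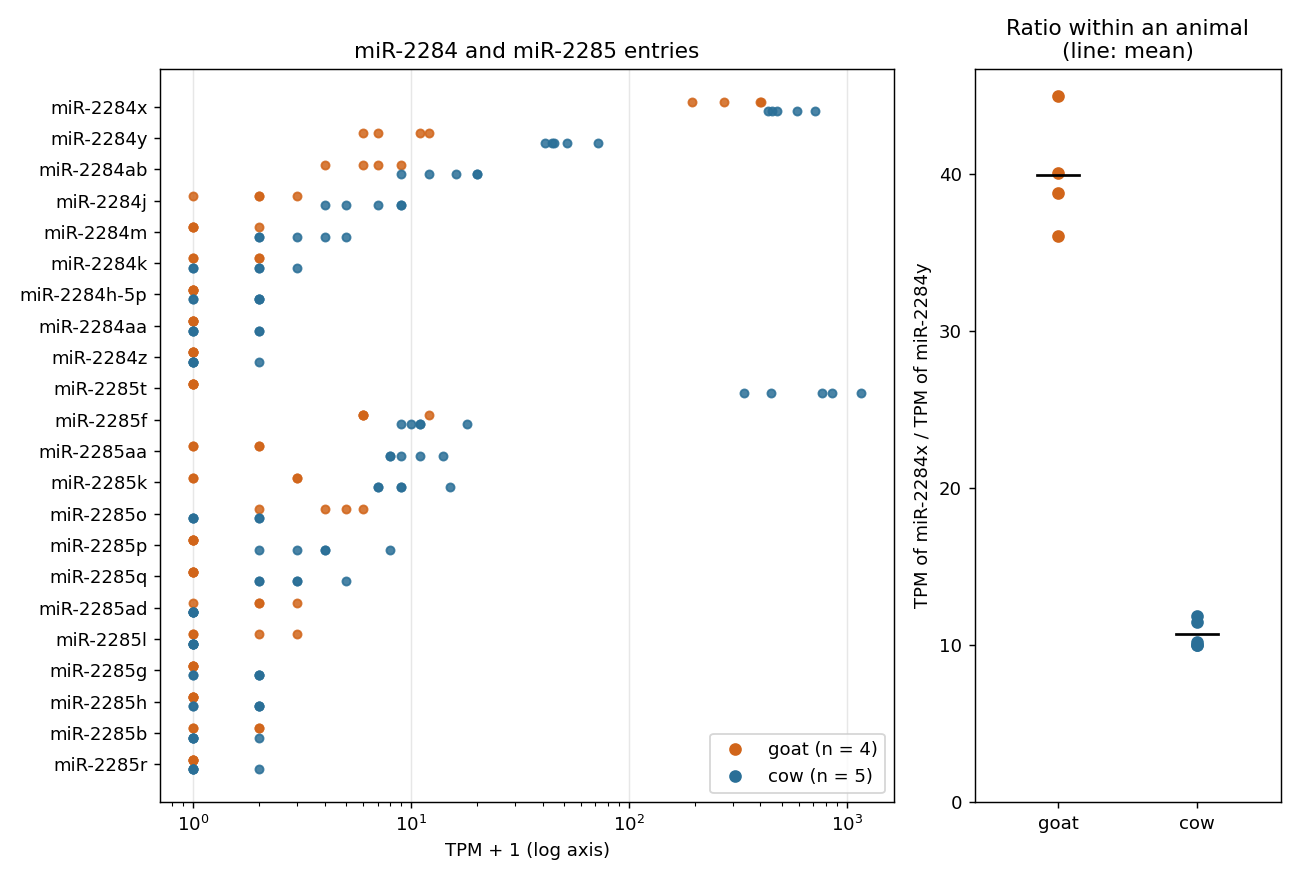
Left, TPM + 1 on a log axis for the 22 miR-2284 and miR-2285 entries, with 1 point per animal and coinciding points drawn over each other, so that a value listed at 0 sits at 1. Right, the ratio of miR-2284x to miR-2284y within each animal on a linear axis. miR-2285t is at 0 in all goats and from 334 to 1152 TPM in cows, and the ratio lies between 36.1 and 45.0 for goats and between 10 and 11.9 for cows.

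In sum over the family, goats had 438, 293, 433 and 213 TPM and cows 1871, 1615, 1377, 890 and 995 TPM. The 9 miR-2284 entries differed less, with a mean ± SD of 330.8 ± 106 TPM (n = 4 goats) against 604.8 ± 135 TPM (n = 5 cows). The 13 miR-2285 entries had 13.5 ± 5.07 TPM (n = 4 goats) against 744.8 ± 337 TPM (n = 5 cows), mostly miR-2285t. Among the 9 tested entries of the family 8 were lower and 0 higher in goats, where 24.0% of all tested entries were lower and 37.3% higher. For 3 of the 8 (miR-2285t, miR-2285aa and miR-2285p) the filter fixed the direction. miR-2284j and miR-2285k, also among the 8, met the filter in cows alone, so their calls leaned on the cows as well. Among the 4 family entries above 0 in every library, miR-2284x, miR-2284y and miR-2284ab were lower and miR-2285f did not pass. With no filter on low values, 10 of the 22 entries were lower and 2 higher in goats, where 19.3% of all 296 were lower and 34.1% higher. The 2 were miR-2285o and miR-2285ad (adjusted p = 0.00451 and 0.0176, limma), at 5 TPM or less.

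Outside the family 7 members whose cow mean reached 10 TPM were at 0 in all 4 goats. miR-2419-5p had 85, 155, 68, 26 and 25 TPM in cows (adjusted p = 4.01e-08, limma). The other arm of the same hairpin, miR-2419-3p, had 26, 30, 12, 0 and 0 TPM, so it was at 0 in the 2 cows with the lowest miR-2419-5p and was seen in too few libraries to be tested. In cows 1, 2 and 3 the 5p arm was 3.27, 5.17 and 5.67 times as high as the 3p arm. miR-6524, which RefSeq places within PDCD4, a repressor of translation, had 57, 37, 29, 24 and 38 TPM (adjusted p = 9.90e-10, limma). miR-6522, within the transcription factor gene NPAS3, had 55, 46, 26, 30 and 26 TPM (adjusted p = 1.22e-09, limma). Both were thus found in each cow at no less than 24 TPM. miR-6120-3p, within the casein kinase gene CSNK1G2, had 36, 32, 29, 41 and 24 TPM (adjusted p = 4.54e-10, limma). miR-6517 had 12, 16, 10, 14 and 10 TPM and miR-2336 had 13, 13, 14, 8 and 12 TPM (adjusted p = 9.60e-09 and 1.15e-08, limma). In cows all 7 lay well above the resolution of the table, except miR-2419-3p in cows 20 and 62, and for the 6 that were tested the filter fixed the direction.

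Members outside the family that were found in every library and were lower in goats were miR-3432a, miR-7859 and miR-2411-5p. miR-3432a was at 7, 7, 15 and 2 TPM in goats and at 93, 60, 38, 44 and 30 in cows, with every goat below every cow (log2 difference -2.75 ± 0.45, adjusted p = 7.28e-05 by limma). RefSeq has 2 genes of this name, within HIP1 and TP53BP1. miR-7859 was at 26, 21, 21 and 10 TPM in goats and at 43, 42, 28, 32 and 26 in cows, where goat 17 equalled the lowest cow (log2 difference -0.83 ± 0.32, adjusted p = 0.0341 by limma). Its adjusted p by limma was above the threshold without goat 127 (0.116), cow 1 (0.0762), cow 2 (0.0699) or cow 20 (0.0512). miR-2411-5p was at 2 TPM in each goat and at 8, 5, 7, 5 and 5 TPM in cows (log2 difference -1.20 ± 0.26, adjusted p = 8.15e-04 by limma), and its 3p arm did not exceed 1 TPM in any animal. miR-2387 was above 0 in goats 17 and 44 only, at 1 TPM each, and at 6, 9, 7, 9 and 9 TPM in cows (log2 difference -2.65 ± 0.30, adjusted p = 1.86e-06 by limma, with its direction fixed by the filter).

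A total of 4 tested members went the other way. miR-3613a was at 16, 16, 20 and 13 TPM in goats and at 7, 7, 4, 3 and 5 in cows. Every goat was above every cow, with a log2 difference of 1.51 ± 0.30 (adjusted p = 4.22e-04 by limma). Both arms of miR-6119, a hairpin that RefSeq places within the ribosomal protein gene RPL39, were higher in goats. The 5p arm was at 40, 26, 45 and 30 TPM in goats and at 19, 26, 13, 19 and 26 in cows, with goat 44 level with cows 2 and 62 (log2 difference 0.76 ± 0.30, adjusted p = 0.0378 by limma). Its adjusted p by limma passed the threshold no longer without goat 17 (0.0929), goat 79 (0.0922), cow 1 (0.0661), cow 3 (0.105) or cow 20 (0.0646). The 3p arm was at 7, 2, 5 and 8 TPM in goats and at 2, 2, 1, 0 and 3 in cows (log2 difference 1.35 ± 0.42, adjusted p = 0.0114 by limma), and with a pseudocount of 0.1 it did not pass (0.0585). Ratios of the 5p to the 3p arm overlapped, at 3.75 to 13.0 in goats and 8.67 to 13.0 in the 4 cows with the 3p arm above 0. miR-2904, a sequence with 73.7% G and C, was at 3, 2, 3 and 10 TPM in goats and at 0, 2, 0, 0 and 1 in cows (log2 difference 1.74 ± 0.43, adjusted p = 0.00227 by limma), with goat 127 above the other 3 goats. Both miR-2904 and the 3p arm of miR-6119 met the filter in goats alone.

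miR-2478, miR-6529a, miR-6516 and miR-7862 did not pass the test. miR-2478 was at 92, 132, 96 and 70 TPM in goats and at 239, 121, 98, 89 and 103 in cows. The species overlapped and only cow 1 stood above all goats (log2 difference -0.35, 95% interval -1.02 to 0.33, adjusted p = 0.352 by limma). miR-6529a, within the gene of the kinase GSK3B, was at 22, 30, 34 and 10 TPM in goats and at 17, 14, 17, 16 and 12 in cows. Goat 127 was below every cow and the other goats above (log2 difference 0.51, 95% interval -0.22 to 1.24, adjusted p = 0.212 by limma), and without goat 127 the entry was called higher in goats (adjusted p = 0.0195, limma). miR-6516 was at 8, 2, 7 and 4 TPM in goats and at 10, 5, 5, 4 and 4 in cows (log2 difference -0.14, 95% interval -0.92 to 0.65, adjusted p = 0.774 by limma). miR-7862 was at 1 to 4 TPM in goats and at 1 to 3 in cows (log2 difference 0.16, 95% interval -0.56 to 0.88, adjusted p = 0.701 by limma).

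**Figure D3:**
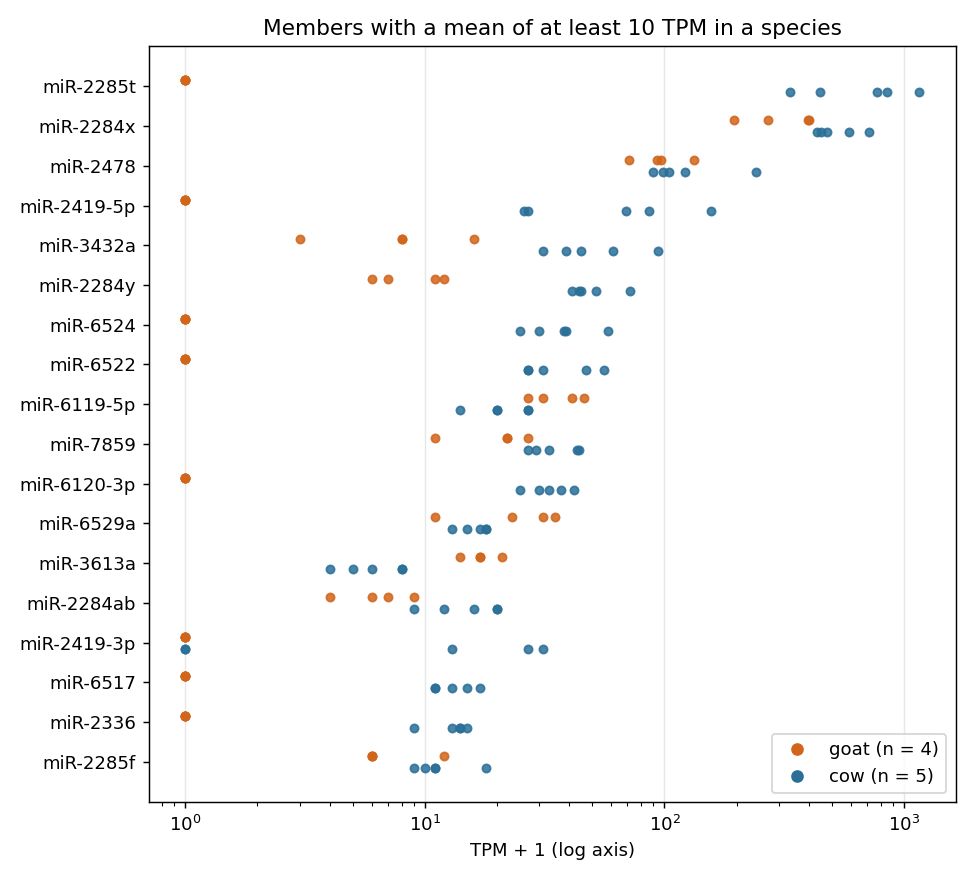
TPM + 1 on a log axis for the 18 members whose mean reached 10 TPM in goats or cows, ordered by the higher of the 2 species means, with 1 point per animal and coinciding points drawn over each other. Values listed at 0 sit at 1, where all 4 goats stand for 8 of the 18 members.

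**Figure D4:**
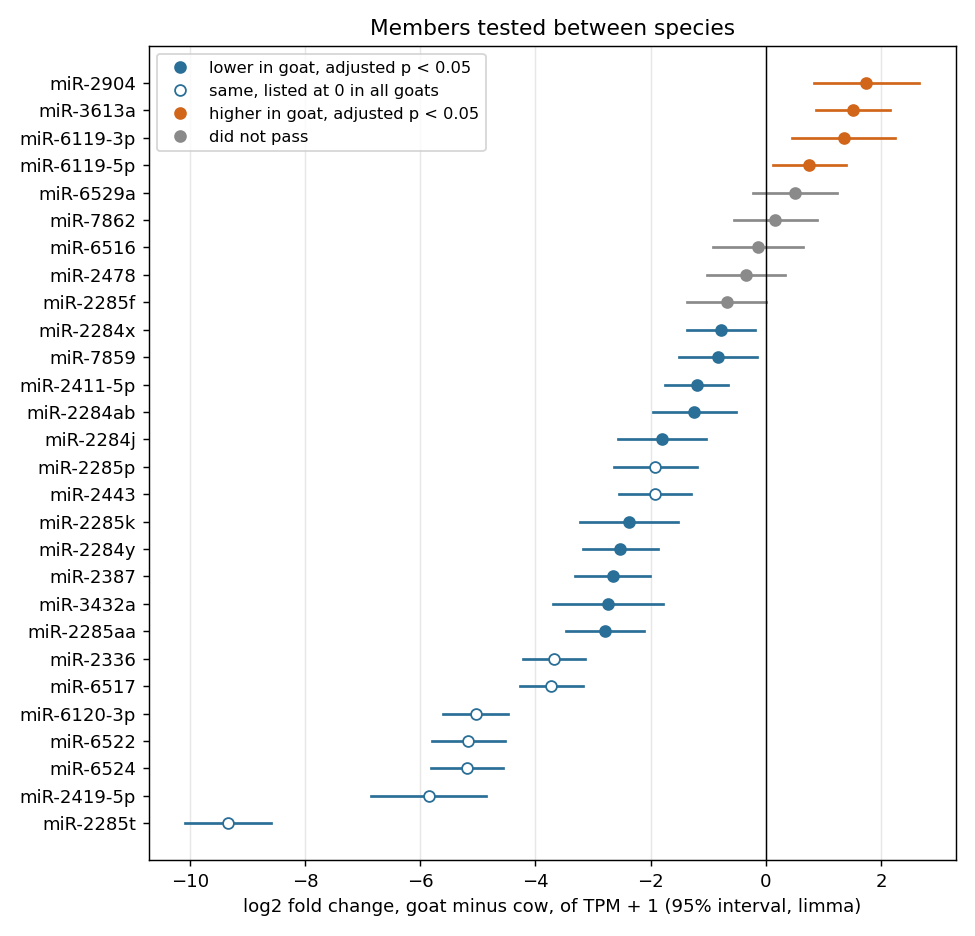
Log2 fold change, goat minus cow, of TPM + 1 with its 95% interval by limma for the 28 tested members. Colour gives the call, and open circles mark the 9 members at 0 in every goat, whose position depends on the pseudocount. Among the filled circles, 10 members are lower in goats, 4 are higher and 5 did not pass.

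The other 15 members outside the family were scarce. miR-2443 was at 0 in goats and at 4, 4, 3, 3 and 1 TPM in cows (adjusted p = 3.27e-05, limma, direction fixed by the filter), and in RefSeq its gene neighbours those of let-7a and let-7b. miR-7857 and miR-2316 were found in all 5 cows at 1 to 3 and 1 to 2 TPM and in no goat. miR-2299-3p was at 0, 1, 1, 1 and 5 TPM in cows, and miR-2299-5p at 0, 1, 0, 1 and 2 TPM. The 2 arms of miR-2299 were thus seen in cows alone, with the gene within B3GLCT, a glycosyltransferase. miR-4286 was found in all 4 goats at 1 to 2 TPM and in 2 cows at 1 TPM. miR-2411-3p was at 1 TPM in goats 17 and 127 and in cows 1 and 2. miR-2409, miR-6523a and miR-7860 reached 1 TPM in 3 cows each, and miR-2320-3p, miR-2339 and miR-6520 in 1 cow each. miR-2355-3p was at 1 TPM in 2 goats. miR-3956 was at 1 TPM in goat 17 only, and in RefSeq its gene lies among those of miR-154c, miR-376e, miR-381, miR-487b, miR-495 and miR-655.

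Across the list 16 of the 56 members never exceeded 1 TPM, as did 13 of the 240 other entries, and 6 members were seen in a single library. Of the 27 cow-only members, 12 were found in all 5 cows, 8 had a mean of at least 10 TPM, and 12 did not exceed 1 TPM in any cow. Members were 27 of the 34 entries found in cows only and 4 of the 49 found in goats only. The 4 goat-only members (miR-2285ad, miR-2285l, miR-2355-3p and miR-3956) did not exceed 2 TPM. RefSeq matched 54 of the 56 members by name, all but miR-2355-3p and miR-2904, of which 43 had 1 gene and 11 several. For 43 members a gene lay within a protein-coding gene, without regard to strand.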

How the data were processed

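Small RNA libraries of milk-derived EVs came from 5 cows and 4 goats, each animal being 1 replicate of the species its label gives. They were made with a NEBNext kit and sequenced on a NextSeq instrument. The deposited values (unit: score) are TPM that the authors rounded to whole numbers, after adapter trimming and mapping to bovine miRBase entries for both species. Neither the mapping program nor a genome build is named in the sources used here. TPM keep no depth, so counting error and detection limits are unknown and precision rests on the number of animals. The listed entries summed to 239233 to 420029 TPM per library.

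Members were selected by number in the name. The members and lists were chosen with earlier results of these data known. limma 3.58.1 (R 4.3.3) was fitted to log2(TPM + 1) of all entries exceeding 1 TPM in 4 or more libraries, using its variance trend. Fold changes on this scale understate the change of low entries. P-values are two-sided and Benjamini-Hochberg adjusted. The model was tested on simulated data. Every member is accounted for. Values per animal are given for members whose mean reached 10 TPM in goats or cows, all miR-2284 and miR-2285 entries and hairpins with both arms listed. Others that are written out per animal (miR-2387, miR-2443, miR-2904 and miR-6516) were chosen after their values were seen. Seeds, edit distances and words were computed on the deposited sequences with Python 3.11.15. Gene names and neighbours (within 10 kb) come from NCBI RefSeq for ARS-UCD2.0, with no coordinates given, since the build behind the values is not stated. Alternatives were pseudocounts of 0.1 and 10, other filters and scalings, limma without a trend, other detection limits and leaving out each animal.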

Additional observations from a re-analysis of the deposited data

Results flagged for a closer look

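A sample was singled out where its gap to the nearest animal of its species exceeded the 95% critical value of Dixon's test. This happened 17 times in 93 groups with any spread. The rate of about 1 in 20 groups that chance gives holds for continuous values and not here, since in whole numbers near 0 a single step of 1 TPM is singled out each time, as in 10 of the 17. Cow 1 was high for miR-2478, at 239 TPM where the other cows had 89 to 121, for miR-2285f, at 17 TPM where they had 8 to 10, for miR-2285k, at 14 TPM where they had 6 to 8, and for miR-6516, at 10 TPM where they had 4 to 5. Goat 17 was high for miR-2285f, at 11 TPM where the other goats had 5, and goat 127 for miR-2904, at 10 TPM where the others had 2 to 3. Cow 62 was high for miR-2299-3p, at 5 TPM where the others had 0 to 1. Goat 17 had 2 TPM of miR-4286 and cow 2 had 2 TPM of miR-2316 where the rest of their species had 1. The remaining cases were single values of 1 TPM where the rest of the species was at 0, for miR-2284m in goat 44, miR-2285b in cow 62, miR-2284z in cow 2, miR-2285r, miR-2320-3p and miR-2339 in cow 3, miR-3956 in goat 17 and miR-6520 in cow 1. No cause was tested.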

How the results depend on the processing

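Of the 28 tested members, 20 kept direction and side of the threshold under every alternative run for them, and 8 did not (miR-2284x, miR-7859, miR-6119-5p, miR-6119-3p, miR-6529a, miR-2285f, miR-6516 and miR-7862). The 20 include the 11 members whose direction the filter fixed, and for these a kept direction was set in advance. Members higher and lower in goats numbered 4 and 19, but 2 and 6 among entries above 0 in every library and 2 and 11 among entries above 10 TPM in at least 4 libraries, where 13 and 15 members were tested. The calls over all entries fell likewise from 133 of 217 to 72 of 155 and 80 of 150, which is from 61.3% to 46.5% and 53.3%. With no filter on low values, 6 of the 56 members were higher and 24 lower, and 158 of all 296 entries were called. With an animal left out, 3 to 5 members were higher, 17 to 20 lower, and 126 to 141 of all entries were called. Members above 0 in both species, cows only and goats only numbered 25, 27 and 4. With an animal left out these counts ran from 24 to 25, 24 to 28 and 3 to 5. When 10 TPM in a library of the species was required, the counts were 8, 12 and 2. The 2 were then miR-3613a and miR-2904, which were also above 0 in cows. The 12 included miR-2284ab, miR-2285aa, miR-2285k and miR-6516, which were also above 0 in goats. The summed level of members, goat minus cow, was -1292 TPM, and -1440 to -1104 TPM with an animal left out. That of the miR-2284 and miR-2285 entries was -1005 TPM, and -1120 to -875 TPM. The log2 fold change of miR-6516 changed sign with an animal left out (-0.35 to 0.18, and 0.07 without cow 1), as did that of miR-7862 (-0.12 to 0.33). Neither was called. The causes were not tested. No paired analysis was possible because goats and cows are different animals and nothing links a goat to a cow. Low TPM are coarse, and depth per library is unknown.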
